A study of Mus musculus with 7 samples.

Results

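Transcript levels of Nanog knockout (KO) induced pluripotent stem cells (iPSC) were compared with those of wild-type (WT) pluripotent cells, using 5 of the 7 samples of a mouse series. The members were taken by sample title: 2 arrays of Nanog KO iPSC against 3 arrays of WT pluripotent cells, namely 1 of embryonic stem cells (WT ESC) and 2 of WT iPSC. The other 2 arrays, 1 of WT and 1 of Nanog KO mouse embryonic fibroblasts (MEF), served mainly to mark genes higher in fibroblasts. Every sample was from strain 129 and carried the genotype WT or Nanog KO. Cells had been cultured in an ESC medium, in a medium with LIF and the inhibitor pair known as 2i, or in a MEF medium, and the labels do not say which sample grew in which. All were detached with trypsin. Each array was made from 73.5 ng of total RNA, of which 5.5 ug of labelled cDNA was used. The iPSC replicates are labelled biological, and nothing says whether the KO arrays came from separate lines, how the Nanog allele was made, or which factors were used for reprogramming. The p-values therefore measure only the spread between these samples, which for 1 line may be technical. From the labels, genotype cannot be told apart from medium or line in any difference between KO and WT. The series asks whether iPSC can be made from cells that lack Nanog.

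Nanog, a homeodomain protein, is made in the naive epiblast. Together with Pou5f1 (Oct4) and Sox2 it binds enhancers of genes that keep embryonic stem cells self-renewing, and it holds back the entry of the cells into differentiation. LIF, acting through STAT3, and inhibitors of the FGF/ERK and GSK3 pathways support the same state in culture.

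The arrays were alike in scale, with medians of log2 intensity from 7.05 to 7.13 and 61.2% to 63.7% of genes above background on the 5 arrays. Background was the level that 95% of 1390 genes for olfactory and vomeronasal receptors did not exceed on an array, 6.30 to 6.50. The arrays differed in fibroblast signal. The summed linear intensity of 10 fibroblast markers was 3037 for WT ESC, 6286 and 1543 for WT iPSC replicates 1 and 2, and 1151 and 1047 in the KO iPSC replicates, against 29695 in WT MEF and 47324 in KO MEF. Of these markers 8, 9 and 6 lay above background on the WT arrays and 6 on each KO array. All 8 pluripotency markers lay above background on the 5 arrays, and their summed intensity was 31180 to 32142 on the WT arrays and 24318 and 24481 on the KO arrays. Markers of blood, primitive endoderm, trophectoderm and neural cells (21 genes) included 1 that rose and 1 that fell. In RNA from bulk samples, fewer cells of a type and less RNA per cell cannot be told apart.

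Nanog itself was read by 1 probe set. On the log2 scale the WT ESC array gave 12.73, the WT iPSC arrays 12.84 and 12.76, and the KO iPSC arrays 7.50 and 7.44. The groups lay far apart, and the KO values were above the background of their arrays. The fitted difference was -5.30 (SE 0.08, 2 arrays against 3, adjusted p = 3.57e-05), a 39.4-fold fall. The labels give no position of the deletion, so the signal left on the KO arrays checks their labels and tells nothing about a remaining transcript.

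Across all 22180 genes, 3483 (15.7%) passed at an adjusted p under 0.05: 1529 were higher in KO iPSC (6.89%) and 1954 were lower (8.81%). Both KO arrays lay above all 3 WT arrays in 6295 genes (28.4%) and below them in 5153 (23.2%). By a gap of at least 2-fold between the nearest KO and WT arrays, 233 genes lay above (1.05%) and 340 below (1.53%). At a gap of 4-fold the numbers were 44 and 70. A fibroblast mark was given to a gene where both MEF arrays lay above all 3 WT pluripotent arrays. No background cut was applied, so a marked gene can lie below background in MEF, as Mir1197 did (4.86 and 4.28). The summed fibroblast markers were lowest on the KO arrays (1151 and 1047). For genes higher in KO the mark gives only their level in MEF, and any part of fibroblast RNA was not tested. The mark fell on 5975 of all genes (26.9%), on 97 of the 340 below (28.5%) and on 87 of the 233 above (37.3%). With arrays centred on their median, 1910 genes were higher and 1620 lower, so the share higher among those called moved from 43.9% to 54.1%. In a fit of the 14805 genes above background on at least 1 of the 5 arrays, 1426 were higher and 2008 lower. Of these 14805 genes, 4102 were separated above and 4718 below. Most list members are above background, so the shares higher and lower over all genes are low yardsticks for most lists.

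**Figure D1:**
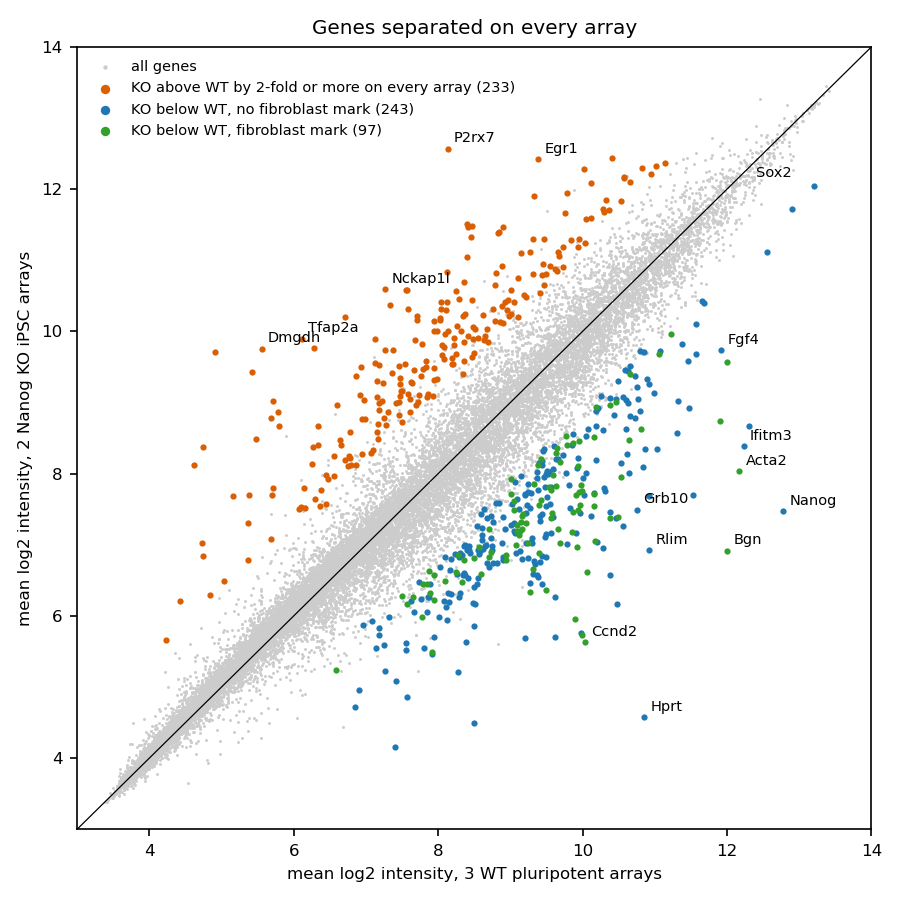
Mean log2 intensity of each gene on the 3 WT pluripotent arrays (x axis) and the 2 Nanog KO iPSC arrays (y axis), with the line of equality. Coloured points are genes whose KO and WT arrays are at least 2-fold apart at their nearest: 233 above (orange), 243 below without the fibroblast mark (blue) and 97 below with it (green). Nanog and Hprt lie farthest below the line among the labelled genes, and P2rx7 far above it.

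The counts rested on both KO arrays. Without KO iPSC replicate 1, 157 genes were higher and 184 lower, and without replicate 2 the numbers were 173 and 230. Without WT iPSC replicate 2 they were 947 and 1283. Of 145 named genes that passed, 50 passed in each of the 5 fits that left out 1 array, and none changed sign in any of them. Every called gene was separated in every array, so its sign could not change when an array was left out. The KO arrays were close to each other, with 4 genes over 2-fold apart, while the WT iPSC arrays differed by that much in 350 genes.

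The widest separation upward was that of P2rx7, an ATP-gated cation channel. It gave 7.84 for WT ESC, 8.25 and 8.30 for WT iPSC, 12.60 and 12.54 for KO iPSC, a rise of 21.7-fold (log2 4.44, SE 0.15, adjusted p = 0.000266). Several enzymes rose from below background on all 3 WT arrays, so their folds are lower bounds. Dmgdh, a mitochondrial enzyme of choline breakdown, stood at 5.35, 5.82 and 5.50 on the WT arrays and at 9.79 and 9.73 on the KO arrays, at least 10.5-fold higher. The aldehyde oxidase Aox3 went from 5.36, 5.41 and 5.48 to 9.45 and 9.41, at least 8.34-fold and with the fibroblast mark. Its KO values lay close together, as did those of Dmgdh. Ido2, which acts on tryptophan, rose at least 10.5-fold with the mark, and Adh1, an alcohol dehydrogenase that oxidises retinol, at least 6.27-fold. The dimmer probe set of Adh1 differed by only 0.36.

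Among transcription factors Tfap2a, known in neural crest and surface ectoderm, stood at 6.11, 6.23 and 5.98 on the WT arrays and at 9.92 and 9.88 on the KO arrays, at least 11.5-fold higher. It was also high on the KO MEF array, at 8.76 against 6.68 in WT MEF, and it carries the fibroblast mark. Nckap1l, a regulator of actin in blood cells, rose from 7.07, 7.53 and 7.21 to 10.59 on both KO arrays (log2 3.32, SE 0.15). The receptor tyrosine kinase Epha4 rose 8.34-fold, from 8.28, 8.49 and 8.45 to 11.41 and 11.52, and carries the fibroblast mark, with MEF values of 9.75 and 10.12. The KO iPSC values of Epha4 were above those of both MEF arrays. Pramel30, 2410021H03Rik, the neurofilament gene Nefm and Pdzrn4 completed the 12 widest separations above, with rises of at least 10.1-fold, 3.36-fold, 5.32-fold and 4.32-fold. All of these 12 genes passed in each leave-one-out fit.

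**Figure D2:**
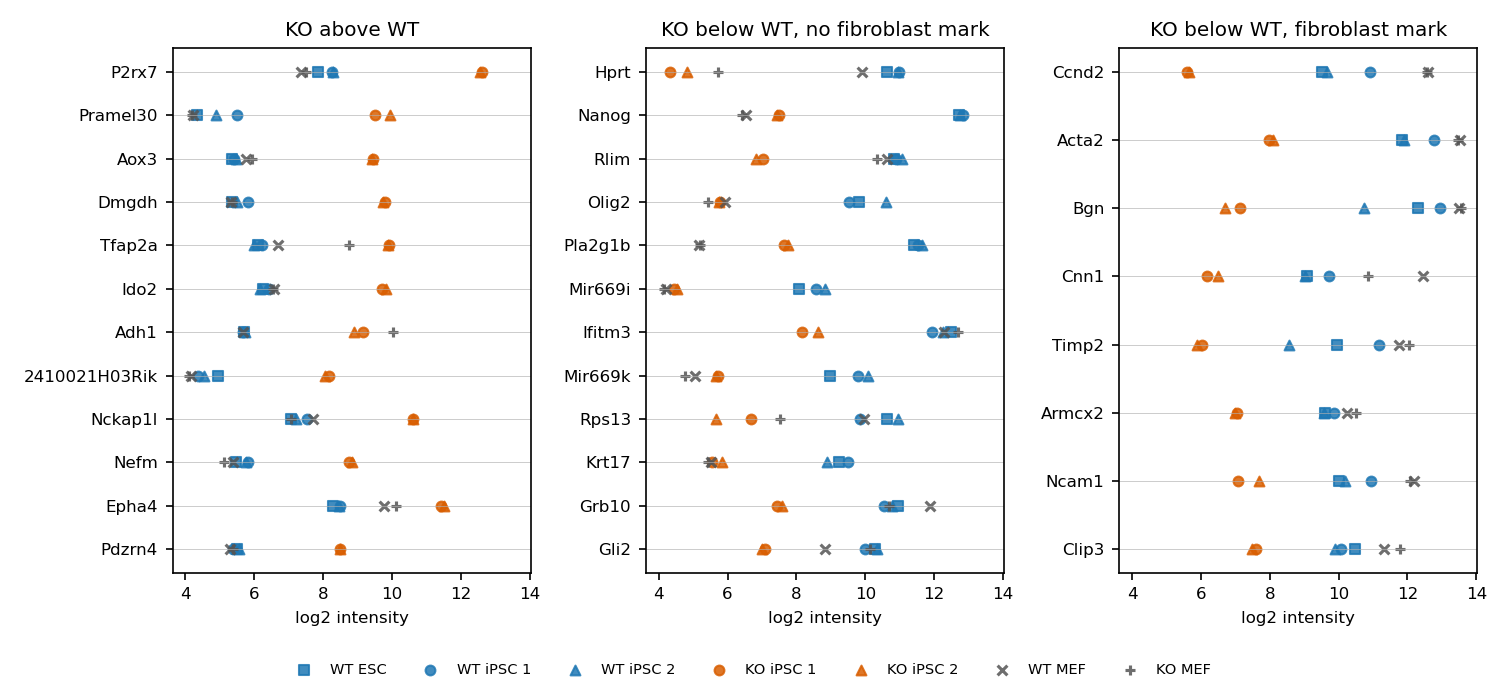
Log2 intensity on each of the 7 arrays for the genes with the widest separation between KO iPSC (orange) and WT pluripotent arrays (blue), with the MEF arrays in grey. The left panel holds 12 genes above WT, the middle panel 12 below WT without the fibroblast mark and the right panel 8 below WT with it. In the right panel both MEF arrays lie to the right of every WT pluripotent array, by the definition of the mark.

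The widest separation downward was that of Hprt, the X-linked enzyme that salvages hypoxanthine and guanine. The WT ESC array gave 10.62, the WT iPSC arrays 10.98 and 10.95, and the KO iPSC arrays 4.32 and 4.83, where both values were below background. The fall was at least 20.8-fold (fitted log2 -6.28, SE 0.19, adjusted p = 0.000217). KO MEF were low too, at 5.72 and below the background of 6.35 on that array, against 9.90 in WT MEF. Rlim, an X-linked ubiquitin ligase that promotes imprinted X inactivation and acts on Zfp42 (Rex1), went from 10.83, 10.89 and 11.06 to 7.02 and 6.83, a 16.0-fold fall (SE 0.11). The MEF arrays gave 10.63 in WT and 10.34 in KO for Rlim. Rps13, a protein of the small ribosomal subunit, fell by 4.31 on the log2 scale (SE 0.42), from 10.64, 9.84 and 10.96 to 6.67 and 5.67. Rps13 belongs to the ribosomal protein genes, which have many pseudogene copies, so its probe set is uncertain.

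Lineage and signalling genes filled the rest of that group. Olig2, a factor of motor neuron and oligodendrocyte precursors, stood at 9.82, 9.51 and 10.59 on the WT arrays and at 5.78 and 5.74 on the KO arrays, at least 11.3-fold lower. The secreted phospholipase Pla2g1b went from 11.41, 11.54 and 11.64 to 7.64 and 7.74, a 14.3-fold fall. Gli2, a transcription factor of the Hedgehog pathway, fell 8.96-fold, and the epithelial keratin Krt17 at least 6.62-fold. Grb10, an imprinted adaptor that restrains insulin and growth factor signalling, fell 9.61-fold, from 10.95, 10.55 and 10.77 to 7.42 and 7.57. These 5 genes were chosen for the width of their gap, so their KO and WT values could not overlap.

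Of 19 measured core pluripotency factors, 4 fell, Nanog itself among them, 2 rose and 13 did not pass, where 8.81% of all genes were lower and 6.89% higher. The median difference was -0.03, against 0.03 over all genes. Utf1, a chromatin-bound protein of pluripotent cells, fell from 13.04, 12.75 and 12.93 to 11.73 on both KO arrays (-1.18, SE 0.11). Lin28a, the RNA-binding protein that blocks let-7 maturation, fell by 1.85, from 10.99, 10.20 and 10.79 to 8.77 and 8.85. Tdgf1 (Cripto), a Nodal co-receptor, fell by 0.48, while the F-box gene Fbxo15 rose by 0.61 and Rif1 by 0.39. Sox2 stood at 12.31, 12.30 and 12.32 in WT and 12.12 and 12.05 in KO iPSC, and did not pass (95% interval of the difference -0.41 to -0.04, adjusted p = 0.107). For Pou5f1 the WT arrays gave 8.40, 8.82 and 9.10 and the KO arrays 9.27 and 8.82, so the groups overlapped (interval -0.32 to 0.86). The interval of Zfp42 ran from -0.55 to 0.22. Without KO iPSC replicate 1 or 2, 1 member of the list fell, Nanog, and none rose, and without WT iPSC replicate 2, 3 fell and none rose.

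Of 22 measured genes listed as naive pluripotency factors, 6 fell, none rose and 16 did not pass, at a median of 0.02. The list is not limited to transcription factors, and its members Fgf4 and Fgfr2 are counted in the FGF list too. Over all genes 8.81% were lower and 6.89% higher. Fgf4, the growth factor that primes ESC for differentiation, stood at 11.75, 11.96 and 12.04 on the WT arrays and 9.64 and 9.82 on the KO arrays, a 4.54-fold fall. Prdm14, which keeps FGF signalling and DNA methylation low, went from 8.77, 9.59 and 8.79 to 7.37 and 7.24. The cytosine dioxygenase Tet2 went from 11.69, 11.67 and 11.69 to 10.35 and 10.46. The other 3 that fell were Fgfr2 (-1.57, with the fibroblast mark), Tcl1 (-0.74) and Tcea3 (-0.56). Nearest to passing upward were the Kruppel-like factor Klf5, which differed by 0.50 (adjusted p = 0.0512), the alkaline phosphatase Alpl by 0.40 (adjusted p = 0.0668) and Tfcp2l1 by 0.72 (adjusted p = 0.089), all with both KO arrays above every WT array. Klf2 differed by 0.53 (adjusted p = 0.133) and Klf4 by 0.18 (adjusted p = 0.308). Esrrb, an orphan nuclear receptor and target of Nanog, stood at 8.24, 9.41 and 9.05 in WT and 8.06 and 7.55 in KO iPSC. Both KO values of Esrrb were below the WT values, and the difference of -1.09 did not pass (adjusted p = 0.1). With arrays centred on their median 2 members rose, and 2 members fell without KO iPSC replicate 1 and also without replicate 2.

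Primed and formative epiblast are the states that follow naive pluripotency. Of 21 of their genes measured, 8 fell, none rose and 13 did not pass, at a median of -0.77, against 8.81% of all genes lower. Otx2, a factor that directs the exit from the naive state, stood at 8.48, 8.34 and 8.71 in WT and 6.16 on both KO arrays. Lefty1, a Nodal antagonist, went from 10.18, 9.05 and 8.75 to 6.88 and 6.65, and the tight junction gene Cldn6 from 10.24, 8.42 and 9.63 to 6.82 and 6.86. Lefty1 and Cldn6 were highest in WT ESC, and the WT iPSC values were also above both KO values. Sox4 fell by 1.35 with the fibroblast mark, and Igfbp3, Utf1, Zic5 and Sfrp2 by 1.23, 1.18, 1.17 and 0.72. The de novo methyltransferases Dnmt3a (adjusted p = 0.0914) and Dnmt3b (adjusted p = 0.17) did not pass. Counts were 1 without KO iPSC replicate 1 and 2 without replicate 2, and 11 without WT iPSC replicate 1.

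Over all genes 8.81% were lower and 6.89% higher. Of 17 measured FGF ligands, receptors and adaptors, 5 fell, 1 rose and 11 did not pass. Beside Fgf4 and Fgfr2 these were Fgf15 (-1.93), Fgf17 (-1.13) and Fgf3 (-0.43), whose WT values were 6.48, 6.58 and 6.40 and whose KO values were 6.05 and 6.06. The decoy-like receptor Fgfrl1 rose by 0.65 with the fibroblast mark. The dimmer probe set of Fgf15 differed by 0.10 in the opposite direction. Among 17 feedback inhibitors and transcription targets of ERK signalling, many of which FGF itself induces, 5 rose and 2 fell. The targets are the ETS factors Etv1, Etv4 and Etv5. The phosphatase Dusp5 went from 8.96, 8.67 and 8.66 to 10.37 and 10.26 (1.55, SE 0.12), and Dusp10 from 7.16, 7.14 and 6.98 to 8.33 and 8.35. Dusp1 rose by 0.93, Spry2 by 0.61 and Dusp14 by 0.48, while Spred3 fell by 0.60 and the ETS factor Etv5 by 0.40. Dusp10, Dusp14 and Spred3 carry the fibroblast mark. Dusp5 and Dusp10 passed in every leave-one-out fit. Spry2 and Etv5, both induced by FGF, thus went in opposite directions, and a dimmer probe set of Etv5 gave 0.39. In the fits without 1 KO array, 2 feedback genes rose and none fell.

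Immediate early genes, which cells transcribe soon after a stimulus, had the largest share that rose among the 30 gene lists. Of 24 measured, 12 rose, 1 fell and 11 did not pass, at a median of 0.77, where 6.89% of all genes were higher. Egr1, a zinc finger factor, had WT values of 10.06 (ESC), 9.72 and 8.37 (iPSC) and KO values of 12.34 and 12.50 (3.04, SE 0.49, adjusted p = 0.0137). Egr3 went from 7.24, 7.33 and 6.81 to 9.70 and 10.08, and Arc, a protein of synapses, from 9.30, 9.27 and 9.43 to 11.94 and 11.88. The KO values of Egr1, Egr3 and Arc were all above every WT value. Egr2 rose by 2.36, the mRNA decay factor Zfp36 by 2.02, Jun by 1.98 and Klf6 by 1.58. Fosb and Fos did not pass. Fosb gave 9.81, 8.78 and 6.77 on the WT arrays and 11.36 and 11.30 on the KO arrays (difference 2.88, interval 0.81 to 4.94), and Fos gave 10.02, 8.91 and 6.95 and then 10.70 and 10.72. Both were lowest in WT iPSC replicate 2 and spread over a wide range on the WT arrays. Ier3 fell by 1.30 with the fibroblast mark. The mark was also on 6 of the 12 that rose. Without KO iPSC replicate 1 or 2, 2 members rose, and Arc and Egr3 passed in every leave-one-out fit.

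Many immediate early genes are known to be switched on by serum response factor, which binds the CArG box. The 250 bases upstream of each gene start were searched for it on both strands. Of the 8 risen genes with a sequence it was found in 2, Egr2 and Zfp36, against none of the other 11 members with a sequence and 1.49% of all 16990 genes with one. Both are printed, from RefSeq on GRCm38.p6, at chr10:67537316-67537565 (plus strand) and chr7:28379229-28379478 (minus strand), with the box in capitals.
Egr2 upstream: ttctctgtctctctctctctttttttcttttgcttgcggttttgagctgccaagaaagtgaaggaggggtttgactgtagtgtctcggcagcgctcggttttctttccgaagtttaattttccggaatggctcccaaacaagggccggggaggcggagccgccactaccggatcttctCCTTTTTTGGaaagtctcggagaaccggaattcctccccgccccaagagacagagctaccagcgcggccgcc
Zfp36 upstream: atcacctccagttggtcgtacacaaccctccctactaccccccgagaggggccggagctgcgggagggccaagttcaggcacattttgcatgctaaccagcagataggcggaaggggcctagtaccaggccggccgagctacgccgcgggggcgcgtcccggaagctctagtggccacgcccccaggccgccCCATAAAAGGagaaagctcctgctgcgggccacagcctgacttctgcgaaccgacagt
At its nearest end the box of Egr2 lies 62 bases from its start and that of Zfp36 48 bases. A match of letters shows no binding, and no match says only that the letters are not in this window.

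In the LIF pathway, the receptor-associated kinase gene Jak2 rose by 0.57 and the transcription factor Stat3 by 0.65, and the target kinases Pim1 and Pim3 fell by 0.71 and 0.67, out of 16 measured. Stat3 stood at 10.78, 10.70 and 10.74 on the WT arrays and 11.33 and 11.44 on the KO arrays, with MEF at 11.31 and 11.75, and both risen genes carry the fibroblast mark. Of 22 Wnt targets and antagonists, 7 rose and 4 fell, where 6.89% of all genes were higher and 8.81% lower. Apcdd1, a membrane inhibitor of Wnt, went from 7.64, 8.24 and 8.09 to 9.97 and 10.04 (2.02, SE 0.18), with the fibroblast mark. Axin2, a feedback inhibitor that Wnt induces, went from 7.65, 7.43 and 7.41 to 8.68 and 8.76, and Bambi and Sp5 rose by 0.93 and 0.85. The cyclin Ccnd1 fell 2.94-fold and the repressor Tcf7l1 by 0.74. In the Nodal and BMP list of 22, Lefty1, Smad6 (-1.27), Smad7 (-0.68) and Tdgf1 were among 5 that fell, and Bmp7 rose by 0.83. Both Smad6 and Smad7 are inhibitory SMAD proteins. Without KO iPSC replicate 1 or 2, 1 Wnt gene rose and 1 fell, and no gene of the LIF or Nodal and BMP lists passed.

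**Figure D3:**
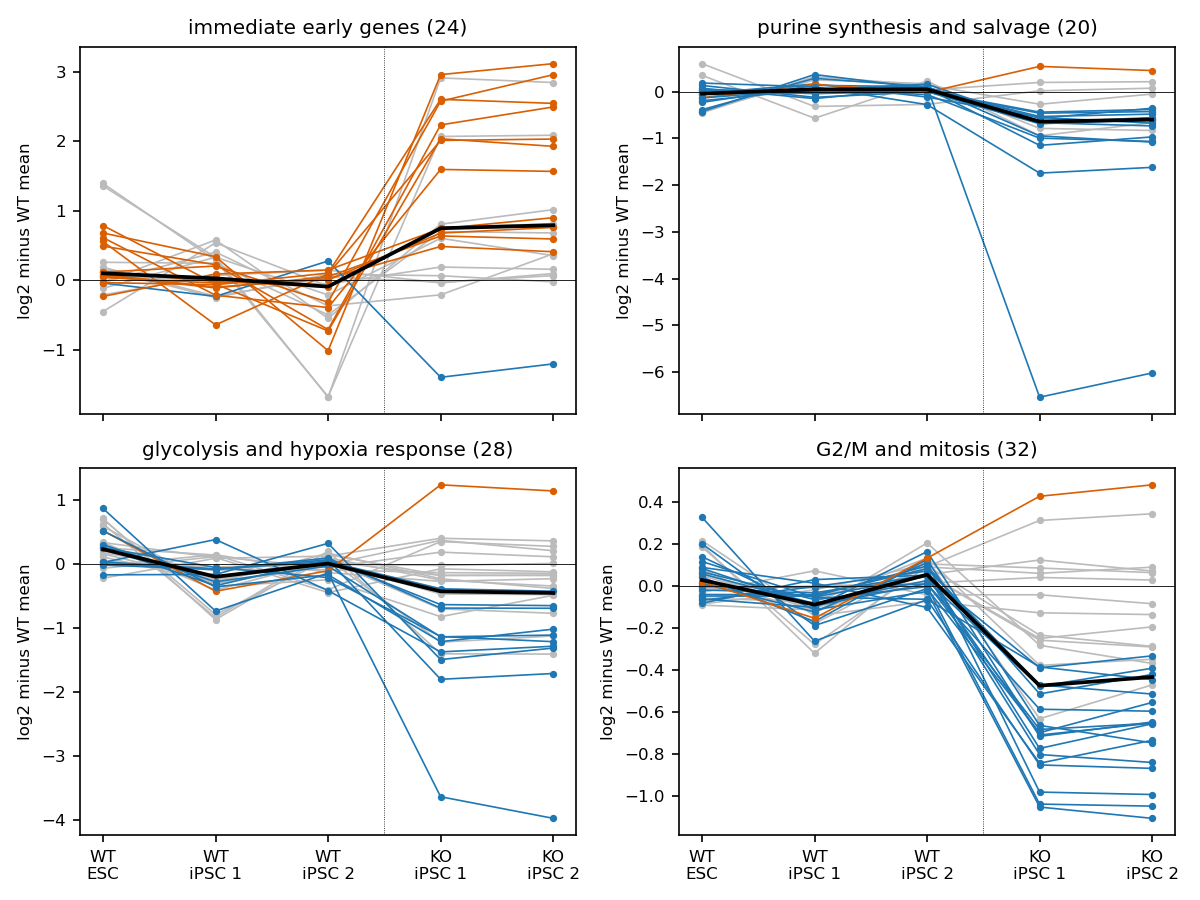
Log2 intensity minus the gene's WT mean on each of the 5 pluripotent arrays, 1 line per gene, for 4 lists with their number of measured members. Orange lines rose, blue lines fell, grey lines did not pass, and the black line is the list's median. The purine line that drops by more than 6 is Hprt, the hypoxia line that drops by more than 3 is Egln3, and the WT values of the immediate early genes spread most.

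Purine synthesis and salvage had the largest share that fell among the lists. Of 20 measured enzymes 14 fell, 1 rose and 5 did not pass, at a median of -0.61, against 8.81% of all genes lower and a median of 0.03. The pathway builds inosine monophosphate stepwise on ribose phosphate, and salvage enzymes return free bases to nucleotides. All but 1 of the enzymes that fell did so without the fibroblast mark. At the entry of the pathway, Prps1, which makes the activated ribose, stood at 10.40, 11.07 and 10.89 on the WT arrays and 9.84 and 9.71 on the KO arrays (-1.02, SE 0.20). Its paralog Prps2 fell by 0.46. Ppat, the committed step, went from 11.41, 11.47 and 11.51 to 10.80 and 10.90 (-0.61, SE 0.08). The WT values of Ppat lay close together, and both KO values lay below them.

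The later steps fell by like amounts. Gart, which carries out 3 steps, fell by 0.61, and Paics went from 12.04, 11.96 and 12.02 to 11.57 and 11.62. Adsl fell by 0.65, and Atic, which closes the ring, by 0.62. At the branch to guanine and adenine nucleotides, Gmps fell by 0.51 and Adss by 0.45, while Impdh1 rose by 0.49 with the fibroblast mark. Among salvage and deamination enzymes Ampd3 fell 3.21-fold, Ada by 1.06, Ampd2 by 1.03 and Aprt by 0.70, beside Hprt. Pnp2 (-0.81, adjusted p = 0.0534) and Adk (-0.81, adjusted p = 0.122) did not pass. Hprt, Prps1 and Prps2 are X-linked, and without X-linked genes 11 of the list fell. Counts were 2 and 3 without KO iPSC replicates 1 and 2, and 9 without WT iPSC replicate 2. Hprt and Ampd2 passed in every leave-one-out fit, and a dimmer probe set of Ampd2 gave -0.32.

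Genes of purine synthesis are known targets of MYC proteins, which bind CACGTG. These letters, the same on both strands, were found upstream of 3 of the 14 fallen genes (Paics, Atic and Ampd3), none of the other 4 members with a sequence and 7.83% of all genes with one. With so few members these counts cannot tell the fallen genes from the others, and a match of letters shows no binding. Mycn, chosen after its values were seen, stood at 10.12, 9.13 and 9.51 on the WT arrays and 7.49 and 7.30 on the KO arrays (-2.19, SE 0.28, adjusted p = 0.00714), and Myc differed by -0.73 (adjusted p = 0.0903). Any part of Mycn or Myc in the falls of purine genes was not tested. The sequences of Paics (chr5:76951052-76951301 (plus strand)) and Atic (chr1:71556906-71557155 (plus strand)) show the letters in capitals, far from the start in Paics and at the start in Atic.
Paics upstream: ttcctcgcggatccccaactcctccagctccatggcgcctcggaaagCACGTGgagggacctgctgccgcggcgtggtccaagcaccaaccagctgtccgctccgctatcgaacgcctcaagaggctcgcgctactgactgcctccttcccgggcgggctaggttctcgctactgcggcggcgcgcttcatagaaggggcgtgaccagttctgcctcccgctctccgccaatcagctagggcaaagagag
Atic upstream: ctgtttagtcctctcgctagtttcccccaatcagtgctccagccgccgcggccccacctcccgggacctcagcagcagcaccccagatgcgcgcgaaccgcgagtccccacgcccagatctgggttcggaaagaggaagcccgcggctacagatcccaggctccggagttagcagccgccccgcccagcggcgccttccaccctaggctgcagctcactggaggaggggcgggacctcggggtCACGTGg

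Glycolysis and the response to low oxygen are under the control of hypoxia-inducible factors. Of 28 of these genes measured, 10 fell, 1 rose and 17 did not pass, at a median of -0.44. Over all genes 8.81% were lower and 6.89% higher. Egln3, a prolyl hydroxylase that marks hypoxia-inducible factors for breakdown and that they in turn induce, gave 11.25 for WT ESC, 9.65 and 10.24 for WT iPSC, 6.74 and 6.41 for KO iPSC (-3.81, SE 0.45, adjusted p = 0.00564). The lactate exporter Slc16a3 went from 10.03, 9.43 and 9.84 to 7.97 and 8.06, and lactate dehydrogenase Ldha from 9.08, 9.09 and 9.58 to 7.76 and 7.94. For all 3 genes the groups did not overlap. Vegfa fell by 1.33, P4ha1 by 1.17 (with the fibroblast mark), Pfkl by 1.12, Egln1 by 1.11, Slc2a3 by 0.69, Slc2a1 by 0.64 and the X-linked Pgk1 by 0.40. Gapdh did not pass (interval of the difference -0.19 to 0.19), and the muscle isoform Pfkm rose by 1.19. Ddit4 (-1.40, adjusted p = 0.0755) and Bnip3 (-1.17, adjusted p = 0.118) were highest in WT ESC and did not pass. No member passed without KO iPSC replicate 1 or without replicate 2, and 16 fell without WT iPSC replicate 1.

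Hypoxia-inducible factors bind the letters ACGTG. Searched on both strands (as ACGTG or CACGT, which also lie within CACGTG), they were found upstream of 8 of the 9 fallen genes with a sequence, namely Slc2a1, Pgk1, Ldha, Slc16a3, Egln1, Egln3, Vegfa and P4ha1. They were also found in 8 of the other 17 members with a sequence and in 20.4% of all genes, and the list was drawn up from known targets, so the count describes the list's makeup. Egln3 (chr12:54203875-54204124 (minus strand)), Ldha (chr7:46845554-46845803 (plus strand)) and Slc16a3 (chr11:120948817-120949066 (plus strand)) are shown as the 3 fallen genes with the largest differences that hold a match, with every match in capitals.
Egln3 upstream: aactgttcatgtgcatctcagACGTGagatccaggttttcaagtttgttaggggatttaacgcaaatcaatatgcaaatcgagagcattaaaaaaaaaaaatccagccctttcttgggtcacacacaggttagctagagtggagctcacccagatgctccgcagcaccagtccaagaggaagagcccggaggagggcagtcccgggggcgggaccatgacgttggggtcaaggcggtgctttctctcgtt
Ldha upstream: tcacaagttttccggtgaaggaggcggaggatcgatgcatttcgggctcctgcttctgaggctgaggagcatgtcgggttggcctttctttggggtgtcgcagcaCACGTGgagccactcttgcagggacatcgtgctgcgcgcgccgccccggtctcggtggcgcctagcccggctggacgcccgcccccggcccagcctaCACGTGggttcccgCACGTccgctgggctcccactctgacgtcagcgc
Slc16a3 upstream: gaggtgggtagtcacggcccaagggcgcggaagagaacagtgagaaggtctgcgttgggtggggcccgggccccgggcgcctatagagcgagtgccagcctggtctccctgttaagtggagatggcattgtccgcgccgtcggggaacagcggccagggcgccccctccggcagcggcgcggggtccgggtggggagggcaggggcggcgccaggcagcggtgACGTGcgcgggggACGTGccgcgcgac
Egln3 holds 1 match far from its start, Slc16a3 holds 2 close to it, and Ldha holds 5, of which 4 overlap in pairs at both places where CACGTG stands and 1 stands alone nearer the start.

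Of 25 genes of aldehyde and retinoid metabolism 4 rose, 4 fell and 17 did not pass. Over all genes 6.89% were higher and 8.81% lower. Beside Aox3 and Adh1, Aox1 rose by 0.91 and the retinol dehydrogenase Rdh5 at least 1.28-fold. Aox3 and Aox1 carry the fibroblast mark. The retinoic acid receptor Rarg fell from 9.08, 9.05 and 8.93 to 7.57 and 7.58, and the retinoic acid carriers Crabp1 (-2.41) and Crabp2 (-1.09) fell with the fibroblast mark. The fit without KO iPSC replicate 1 left 2 that rose and 2 that fell. Of 19 genes of 1-carbon and amino acid metabolism 2 rose, Dmgdh and Ido2, and 3 fell. Those that fell were the serine synthesis enzyme Phgdh (-1.08, with the fibroblast mark), Ahcy (-0.69) and Dld (-0.33). No member of this list fell in the fits without 1 KO array. Of 18 cholesterol and fatty acid genes only Dhcr7 fell (-0.90), and 3 rose with quantile normalization.

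Of 32 genes of G2/M and mitosis 18 fell, 1 rose and 13 did not pass, at a median of -0.45, against 8.81% of all genes lower. Both KO arrays lay below all WT arrays in 24 of them, against 23.2% of all genes and 4718 of the 14805 genes above background. All 32 members lay above background on at least 1 of the 5 arrays. Cenpf, a kinetochore protein, went from 10.36, 10.11 and 10.20 to 9.17 and 9.11 (-1.08, SE 0.10). The spindle protein Nusap1 went from 10.78, 10.65 and 10.71 to 9.67 and 9.66, and the checkpoint kinase Bub1b from 10.82, 10.68 and 10.92 to 9.82 and 9.81. Bub1 fell by 0.86, Cdc20 by 0.82 and Cdk1, the kinase that starts mitosis, by 0.47. Lin54, a subunit of the complex that binds cell cycle promoters, rose by 0.45. Foxm1 (0.33, adjusted p = 0.204), a factor that activates G2/M genes, and Mybl2 (0.03) did not pass. No member of the list, fallen or not, carries the fibroblast mark. Their element TTTGAA was found in 5 of the 15 fallen genes with a sequence, 4 of the other 10 members and 16.1% of all genes. In each fit without 1 KO array 1 member fell, Nusap1, and 12 fell without WT iPSC replicate 2. The list's median level was 10.21 in WT MEF and 9.02 in KO MEF.

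Among 31 genes of G1/S and DNA replication 7 fell and 2 rose, where 8.81% of all genes were lower and 6.89% higher. The D cyclins, which carry growth signals into the cell cycle, all fell. Ccnd2 went from 9.52, 10.91 and 9.67 to 5.60 and 5.67, at least 11.8-fold lower and with the fibroblast mark, since the MEF arrays gave 12.59 and 12.56. Ccnd1 went from 11.25, 11.52 and 11.38 to 9.84 and 9.81, and Ccnd3 from 11.50, 11.64 and 11.55 to 10.74 and 10.84. The ribonucleotide reductase subunit Rrm2 fell by 1.01 and the cyclin Ccne1 by 0.86. The inhibitor Cdkn1a (p21) rose by 0.70 and the kinase Cdk6 by 0.98, both with the mark. Without KO iPSC replicate 1, 1 fell, and without replicate 2, 2 fell.

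Germline genes, several of which naive cells also express, fell in 7 of 28 cases and rose in none. Over all genes 8.81% were lower and 6.89% higher. The receptor kinase Kit stood at 10.61, 11.28 and 10.71 on the WT arrays and 8.36 and 8.33 on the KO arrays, and Mael, a factor of piRNA biogenesis, went from 9.19, 9.57 and 9.93 to 7.18 and 7.14. Piwil2 fell at least 2.11-fold, the meiotic gene Hormad1 at least 1.35-fold, and Dazl by 1.62. No member of the germline list, fallen or not, carries the fibroblast mark. Kit and Hormad1 passed in every leave-one-out fit, and 2 members fell without KO iPSC replicate 1 or 2, but 11 fell without WT ESC. Neural genes split. Of 21 measured, 5 fell and 2 rose. Beside Olig2, the neuronal tubulin Tubb3 went from 9.94, 11.03 and 10.73 to 7.26 and 7.27, Ncam1 fell 7.96-fold with the mark, and Uchl1 fell by 2.34, though a dimmer probe set of Uchl1 gave 0.22. The neurofilament genes Nefl and Nefm rose. Nefl went from 8.15, 8.24 and 8.81 to 11.50 and 11.53, while on the MEF arrays it lay below background.

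Of 20 primitive endoderm genes 3 fell and 1 rose, and of 20 trophectoderm genes 1 fell and 2 rose, where 15.7% of all genes passed. In the primitive endoderm, the laminin Lamb1 fell from 9.67, 9.47 and 9.61 to 7.47 and 7.42, and Dab2 by 1.02, both with the fibroblast mark. The other fall was that of Fgfr2, also marked and also counted in the naive and FGF lists. Gata6, which Nanog opposes in the blastocyst, rose by 1.15, also with the mark. In the trophectoderm list, Tfap2c fell 2.89-fold, from 7.99, 8.26 and 8.26 to 6.66 and 6.62. Its paralog Tfap2a rose and Plac1 rose by 0.47, both with the mark. Genes of the 2-cell-like state, a rare state in ESC culture, depended on 1 WT array. Of 21 measured 2 rose, but without WT iPSC replicate 1 the number was 16. The median level of the list was 6.24 in WT ESC, 8.05 in WT iPSC replicate 1, 6.67 in WT iPSC replicate 2 and 8.02 and 7.80 in KO iPSC. WT iPSC replicate 1 and both KO arrays thus stood close together and above the other WT arrays. Many members of that list are multi-copy genes whose probes may be shared.

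In the list of DNA methylation and demethylation, 6 of 19 fell and none rose, where 8.81% of all genes were lower and 6.89% higher. Tet2 and Tet1 (-0.35) fell, as did Gadd45g (-1.36, with the fibroblast mark), Gadd45b (-0.68), the readers Uhrf2 (-0.83) and Mbd4 (-0.77). Without WT iPSC replicate 2, 3 fell, and without KO iPSC replicate 1 or 2, 1 fell. In the Polycomb and X inactivation list of 22, Rlim and Pcgf6 (-0.40) fell and Suz12 (0.53) and Bmi1 (0.60, with the mark) rose. The median difference of X-linked genes was -0.21 over 488 genes above background, against -0.05 to 0.03 on the autosomes. Against WT ESC alone the X median was 0.03, and against WT iPSC it was -0.32. Of these X-linked genes 23 rose and 96 fell. Xist, the RNA that coats the inactive X, gave 7.35 for WT ESC, 9.65 and 7.96 for WT iPSC, 7.57 and 7.23 for KO iPSC, and did not pass. On the MEF arrays Xist gave 11.97 in WT and 9.15 in KO. The Y-linked genes Eif2s3y and Uty gave 5.05 and 4.86 in WT MEF and 9.21 and 8.78 in KO MEF, against 5.01 to 5.22 and 4.90 to 5.27 in KO iPSC. The MEF arrays thus differ in X- and Y-linked markers beside genotype. The part of these values in the falls of Hprt, Prps1, Bgn and Pgk1 was not tested.

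Imprinted genes rose and fell in equal number, 3 each of 23, where 6.89% of all genes were higher and 8.81% lower. Plagl1, a zinc finger growth regulator, went from 7.28, 9.03 and 8.05 to 10.83 on both KO arrays, though a dimmer probe set gave 0.34. Igf2r, the receptor that clears Igf2, rose by 1.36 with the fibroblast mark and Impact by 1.31, from 11.18, 10.91 and 10.94 to 12.34 and 12.30. Grb10 fell, as did Igf2 by 1.08 (with the mark) and Ppp1r9a by 0.61. Igf2r, Impact and Grb10 passed in every leave-one-out fit.

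At the cell surface, Ifitm3, a membrane protein of germ cells and antiviral defence, fell 14.4-fold, from 12.49, 11.94 and 12.27 to 8.16 and 8.62, and Ifitm2 by 1.49. These and Irf1 (-1.01) were the 3 of 26 interferon response genes that fell, and none rose. Over all genes 8.81% were lower and 6.89% higher. Of 26 genes of epithelial junctions 6 fell and 1 rose. The splicing factor Esrp1 fell at least 2.76-fold, the transcription factor Grhl2 by 1.89, and the adhesion molecule Epcam from 10.89, 10.43 and 10.71 to 9.47 and 8.93. Esrp1 and Cldn6 were highest in WT ESC. The count of falls was 1 without KO iPSC replicate 1, 0 without replicate 2 and 12 without WT iPSC replicate 1. Of 18 purinergic genes 3 rose and 1 fell. With P2rx7 rose Nt5e (CD73), the enzyme that makes adenosine outside the cell, from 8.13, 8.32 and 8.27 to 10.52 and 10.62, and the receptor P2ry1 by 0.83, while P2ry2 fell by 1.41. In the Pramel family of 15, Pramel30 and Pramel14 rose. Pramel30 gave 4.33, 5.51 and 4.89 on the WT arrays and 9.49 and 9.93 on the KO arrays, and Pramel14 gave 4.02, 5.86 and 4.35 and then 8.20 and 8.56. Pramel1 fell at least 1.47-fold. This family has many near-identical copies, so which copy the probes read is uncertain.

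**Figure D4:**
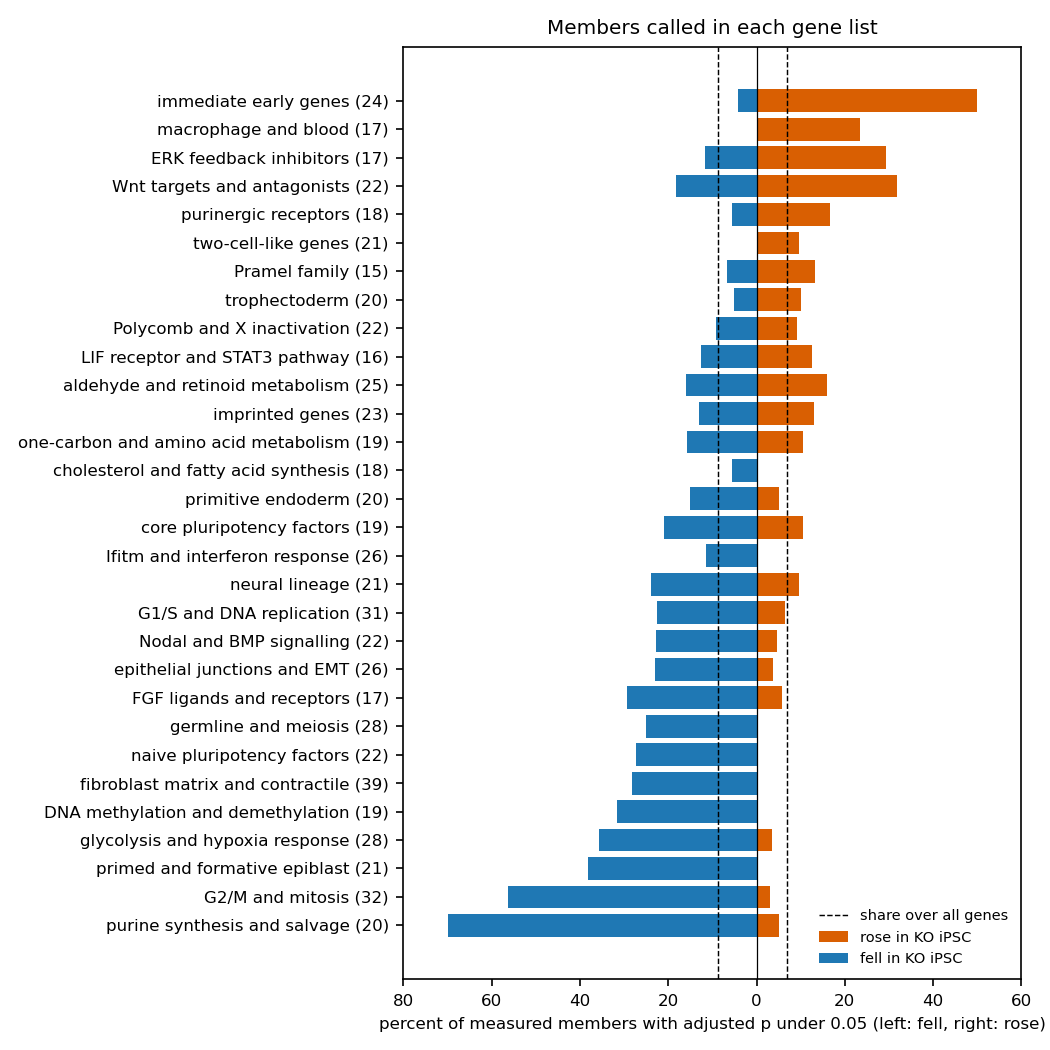
Percent of measured members that rose (orange, right) or fell (blue, left) in Nanog KO iPSC at an adjusted p under 0.05 for each of 30 gene lists, with the number of measured members in parentheses. Dashed lines give the share over all genes, 6.89% higher and 8.81% lower. Immediate early genes extend farthest to the right and purine synthesis farthest to the left.

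Of 39 measured genes of fibroblast matrix and contraction, 11 fell, none rose and 28 did not pass, at a median of -0.91, against 8.81% of all genes lower. All 11 carry the fibroblast mark, as do 38 of the 39. The list's median level was 8.55 for WT ESC, 9.62 and 7.91 for WT iPSC, 7.13 and 7.01 in KO iPSC, and 11.9 and 12.3 in the MEF arrays. The order within the WT arrays was that of the summed fibroblast markers, all of which belong to this list. Smooth muscle actin Acta2 stood at 11.84, 12.76 and 11.91 on the WT arrays and 7.99 and 8.08 on the KO arrays (-4.14, SE 0.29). The matrix proteoglycan Bgn went from 12.31, 12.95 and 10.74 to 7.13 and 6.70, and a dimmer probe set gave -1.48. The protease inhibitor Timp2 went from 9.96, 11.19 and 8.55 to 6.03 and 5.88, at least 10.8-fold lower. In Bgn, Timp2 and Lox (10.34, 11.59 and 8.04 on the WT arrays) the WT values followed the same order as the markers, and so did those of Cnn1 and Armcx2. In Acta2, Ccnd2 and Ncam1 the lowest WT array was WT ESC, and in Clip3 the highest was. Calponin Cnn1 fell by 2.94, and Armcx2 (-2.66), Ncam1 (-2.99) and Clip3 (-2.61) completed the 8 widest marked separations with Ccnd2. The part of fibroblast RNA in these falls was not tested. With WT iPSC replicate 2, which has the least fibroblast signal of the WT arrays, as the only WT array, 19 of the 39 fell and 7 rose, in a fit with 1 residual degree of freedom. The count of falls was 2 and 3 without KO iPSC replicates 1 and 2, and 19 without WT iPSC replicate 2.

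**Figure D5:**
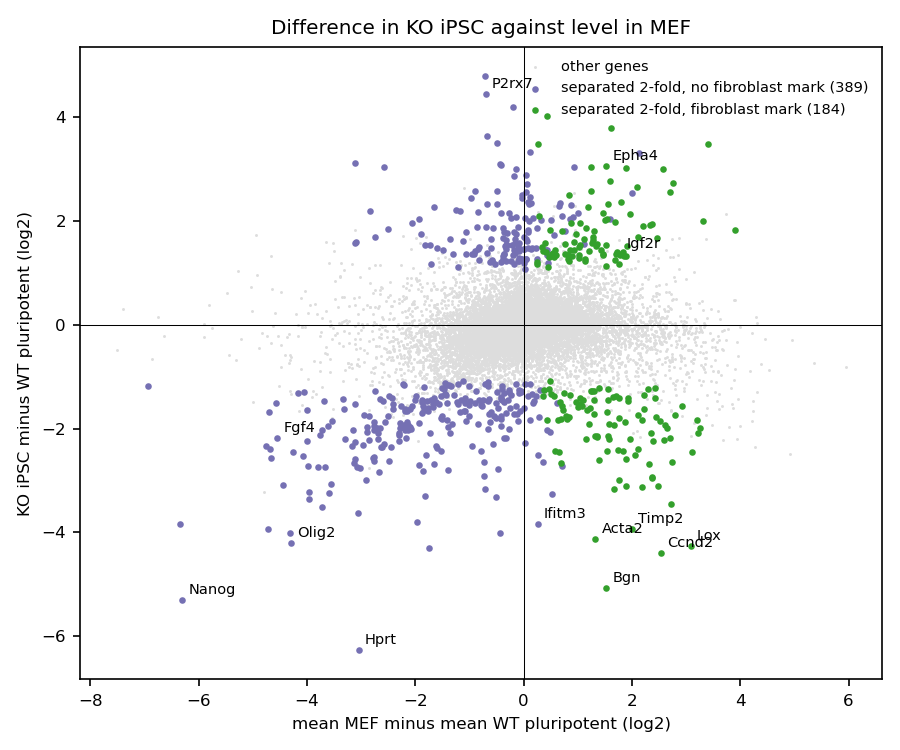
Difference between KO iPSC and WT pluripotent arrays (y axis, log2) against the difference between the MEF mean and the WT pluripotent mean (x axis, log2). Purple and green points are the genes at least 2-fold apart on every array, without (389) and with (184) the fibroblast mark. Acta2, Bgn, Lox, Ccnd2 and Timp2 lie at the lower right, while Nanog, Olig2, Hprt and Fgf4 lie at the lower left, where MEF levels are lower than WT pluripotent levels.

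Among the 70 genes at least 4-fold below WT on every array, 19 carry the mark, and WT iPSC replicate 1 was the highest WT array in 73.7% of those and in 23.5% of the other 51. Among the 44 genes at least 4-fold above WT the values were 35.7% of 14 marked genes and 46.7% of the other 30. Among all genes they were 44.8% with the mark and 33.7% without. Leaving marked genes out of the counts, 902 genes were higher and 1514 lower. Of macrophage and blood genes, 4 of 17 rose, against 6.89% of all genes: Nckap1l, Laptm5 (0.89), Cd34 (0.86, with the mark) and Spi1 (0.59). The count was 1 without KO iPSC replicate 1 and also without replicate 2, and 2 without WT iPSC replicate 2. The 6 defining blood markers, Ptprc, Cd68, Csf1r, Adgre1, Tyrobp and Lyz2, included none that passed, and their summed intensity was 1957 to 2520 on the WT arrays and 2218 and 2254 on the KO arrays.

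MicroRNA genes were measured through their precursors or host transcripts, since the arrays do not read the mature form as such. Of 483 measured, 37 rose and 16 fell, where 6.89% of all genes were higher and 8.81% lower. The mature sequences of those described here show what each precursor yields, from RefSeq on GRCm38.p6, with the seed (bases 2 to 8), which pairs with targets, in capitals.
miR-290a-3p: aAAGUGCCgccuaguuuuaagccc
let-7a-5p: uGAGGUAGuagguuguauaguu
miR-15a-5p: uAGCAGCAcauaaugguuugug
miR-667-3p: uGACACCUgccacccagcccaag
miR-300-3p: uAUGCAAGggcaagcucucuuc
These 5 seeds differ from one another. Mir290a, of the cluster that ESC express most, stood at 8.44, 8.82 and 8.09 on the WT arrays and 7.10 and 7.12 on the KO arrays (-1.34, SE 0.21, adjusted p = 0.0127). Mirlet7a-1, whose family drives differentiation and which Lin28a blocks, went from 7.62, 7.55 and 7.52 to 8.16 and 8.17 (0.60, SE 0.08), with the fibroblast mark. Mir15a went from 8.09, 8.59 and 8.77 to 9.72 and 9.88. The 5 genes were chosen after their values were seen.

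In the imprinted cluster on chromosome 12, 15 of 41 microRNA genes from Mir770 to Mir3072 rose and none fell, at a median of 0.71. Both KO arrays lay above all WT arrays in 32 of them. Over all genes 6.89% were higher and 28.4% were separated above in this way. The cluster's median level was 6.60 for WT ESC, 6.18 and 5.26 for WT iPSC replicates 1 and 2, and 6.79 and 6.85 in KO iPSC. WT iPSC replicate 2 was the lowest. Mir667 gave 8.69, 8.20 and 6.92 on the WT arrays and 9.93 and 10.09 on the KO arrays, and Mir300 gave 5.78, 4.47 and 3.91 and then 6.92 and 7.13, at least 1.57-fold higher. The long transcripts of the locus did not pass: Rian stood at 10.25, 9.65 and 6.92 in WT and 10.31 and 10.17 in KO iPSC, and Meg3 at 6.98, 6.72 and 6.71 and then 7.31 and 7.13. WT iPSC replicate 2 had the lowest value of Rian by a wide margin, while the WT iPSC values of Meg3 were nearly equal. Genes of a cluster share transcripts and are not independent.

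Of 11 Mir669 genes measured on chromosome 2, 6 fell and none rose, at a median of -0.75, against 8.81% of all genes lower. Sfmbt2, an imprinted Polycomb-related gene expressed in early embryo and trophoblast, carries Mir669 copies in an intron. It stood at 9.33, 9.63 and 9.34 on the WT arrays and 6.39 and 6.50 on the KO arrays (-2.98, SE 0.12, adjusted p = 0.00037), with MEF values of 6.64 and 6.40. Mir669i went from 8.08, 8.57 and 8.83 to 4.45 and 4.53, at least 4.07-fold lower, Mir669k from 8.99, 9.80 and 10.09 to 5.72 and 5.67, at least 8.89-fold lower, and Mir669j fell at least 8.83-fold. The other 3 fell by less: Mir669a-3 by 1.07, Mir669g by 0.75 and Mir669e by 0.73. These precursors are near-identical copies, and the 9 probe sets of Mir669k ranged from -4.08 to -3.31. Sfmbt2, the count and the Mir669 genes other than Mir669i and Mir669k were chosen after their values were seen.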

How the data were processed

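RNA of mouse cells was measured on single-colour Affymetrix whole-transcript arrays, 1 per sample. The authors deposited 1 intensity per probe set, linear in scale. Per the submitters' processing notes these came from RMA and from version 1.3.0.187 of Affymetrix Expression Console. The log2 was taken here, with no further normalization of the deposited intensity. Background correction was used as deposited, and the genome build is not given in the sources used here. Of 33649 probe sets, 23521 had 1 gene symbol in the platform annotation, and 23328 of these matched RefSeq. They covered 22180 genes, each read by the probe set that was brightest on average over all 7 arrays. Of 174 named genes 20 had several probe sets, which differed in sign in 5.

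In R 4.3.3, limma 3.58.1 fitted the differences (lmFit, eBayes, two-sided tests, 3 residual degrees of freedom) after a check on simulated data, with Benjamini-Hochberg adjustment over all genes at 0.05. SE is the fit's standard error, and intervals are 95% and unadjusted. Where every array on the dim side was below its background, the fold is a lower bound against the mean background of those arrays. Medians of lists use fitted values. The number of arrays limits the precision. The MEF arrays entered the choice of probe set, the fibroblast mark and the test of genotype by cell type (7 arrays, 2 residual degrees of freedom). They also entered an alternative fit of all 7 arrays, and are otherwise given by value.

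The comparison, 30 gene lists (708 symbols, 636 genes found) and rules were chosen with earlier results of these data known. Named by rule were Nanog, the called genes with the widest gap (12 above, 12 below without the mark, 8 with it), up to 4 members of each list in a direction and all core and naive factors. Other members of the lists are given by value only. Upstream sequences and mature microRNAs are from RefSeq tables of GRCm38.p6. Alternatives covered scaling, dim genes, the variance model, probe sets, arrays in the fit and leaving out each array.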

Additional observations from a re-analysis of the deposited data

Results flagged for a closer look

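The difference between KO and WT iPSC was set against that between KO and WT MEF, in a fit of all 7 arrays with 1 array per genotype in MEF, and genes are listed where these differences were not equal at an adjusted p under 0.05. The genes, 10 in each direction, were chosen for the width of their separation in pluripotent cells. A larger difference there is therefore largely fixed by the choice, and the values below are a description that supports nothing. The 8.55% of all genes that passed is no yardstick for them. The MEF arrays also differ in X- and Y-linked markers. The values given are the log2 difference in iPSC minus that in MEF.

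Above WT the values were 4.15 for P2rx7, 4.53 for Pramel30, 3.82 for Aox3, 4.07 for Dmgdh, 3.49 for Ido2, 3.72 for 2410021H03Rik, 3.86 for Nckap1l and 3.26 for Nefm. Tfap2a was higher on the KO arrays of both cell types, by more in iPSC (1.71). For Adh1 the difference was larger in MEF than in iPSC (-1.05).

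Below WT the values were -5.22 for Nanog, -3.76 for Rlim, -3.78 for Olig2, -3.90 for Pla2g1b, -4.13 for Mir669i, -4.13 for Ifitm3, -3.94 for Mir669k and -3.40 for Krt17. Hprt was lower in KO cells of both kinds, with a value of -2.20. It lay below background on the KO arrays of both kinds, so this value cannot show a larger loss in iPSC. Several of these genes are at background in MEF, where no fall could be seen.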

How the results depend on the processing

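The named genes that passed were separated in every array, so leaving out an array could not change their sign. In the other settings no sign changed. The balance of the counts did: 1529 genes were higher and 1954 lower, against 1910 and 1620 with arrays centred on their median and 1898 and 1694 with quantile normalization. The median difference over all genes, 0.03, was -0.02 without genes below background on all 5 arrays. With the KO iPSC arrays counted as 1, 159 genes were higher and 206 lower. Leaving out 1 array at a time gave 157 to 1729 higher and 184 to 2438 lower, 7359 to 8350 and 5806 to 6506 separated above and below, and 262 to 308 and 389 to 477 separated by 2-fold. As for dim genes, 4102 were separated above when genes below background on all 5 arrays were left out, and 4147 when the dimmest genes by mean level were. Chosen after seeing the data, WT iPSC replicate 2 as the only WT array gave 2504 higher, 3475 lower, 10241 and 8515 separated, and 427 and 683 by 2-fold. Without marked genes, also chosen then, 902 were higher, 3996 separated above and 146 by 2-fold. The causes were not tested, beyond fewer arrays, degrees of freedom or genes.

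The replicate numbers did not pair the samples, since deviations of same-numbered iPSC arrays correlated at 0.01 over 14805 genes. With the replicate number as a block, 1331 genes were higher and 1948 lower. Of 145 named genes that passed, 92 no longer passed with the KO arrays counted as 1, 94 and 89 without KO iPSC replicate 1 or 2, 35 without WT iPSC replicate 2 and 13 with the replicate block. Dim genes near background limit the folds.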

Other observations

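Beside Hprt, Rps13, Adh1 and Tfap2a, a few genes differed in the same direction on the KO arrays of both cell types. The potassium channel Kcnma1 was lower by -3.63 in KO iPSC and by -4.79 on the KO MEF array. The complement regulator Cd55 was higher by 2.34 and 2.17, and Olfml1 by 2.53 and 4.41. The MEF differences come from 1 array per genotype and have no replicate check. These arrays also differ in Xist (11.97 in WT and 9.15 in KO MEF) and in the Y-linked Eif2s3y (5.05 and 9.21), so genotype and sex cannot be told apart in them.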
